A study of Mus musculus with 32 samples.

Results

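The 10 genes described here are the Apoe cluster and its partners in lipid handling: *Apoe*, *Apoc1*, *Apoc2* and *Apoc4*, which lie side by side, and *Lpl*, *Abca1*, *Abcg1*, *Soat1*, *Plin2* and *Fabp5*. They were taken by name, as the rows whose Ensembl identifiers map to these symbols, and make up 10 of the 74021, 74016 and 74021 genes listed in the tables of LAG-3-sorted cells, disease stages and spinal cords. All 10 passed the filter on low counts in all 3 tables. The study asked what the immune checkpoint receptor LAG-3 does in microglia of SOD1G93A mice, which carry a human SOD1 transgene with an ALS mutation and develop motor neuron disease. RNA was sequenced from CD11b+/CD45int cells sorted from lumbar spinal cord and, separately, from whole lumbar spinal cord.

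The first table held 4 libraries of WT microglia from non-transgenic littermates, whose age the labels do not give, and 5 libraries each of a LAG-3-low and of a LAG-3-high fraction of microglia from P140 SOD1G93A mice with intact *Lag3*. The second table held 3 libraries per group of microglia from SOD1G93A mice, either LAG-3+/+ or LAG-3-/-, at P120 (age 120 days) and P140 (age 140 days). The last table held lumbar spinal cords of SOD1G93A mice at P140, of which 3 were LAG-3+/+ and 3 were LAG-3-/-. The LAG-3-/- mice carried the Lag3tm1Doi allele in the germ line, so the loss was not limited to microglia, and every mouse of the stage and cord tables carried the SOD1G93A transgene. The sources do not say whether equally numbered libraries of the sorted fractions share their mice, and without that the p-values measure only the spread between libraries.

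Apolipoprotein E is the main lipid carrier secreted by glia, and microglia that leave their resting state around damaged neurons are known for making much more of it. Cholesterol that a phagocyte takes up with myelin and dead cells is either loaded onto apolipoprotein E by the transporters ABCA1 and ABCG1 or esterified by SOAT1 and stored in lipid droplets, which perilipin 2 coats. The genes for apolipoprotein E, ABCA1 and ABCG1 are textbook targets of the liver X receptors (LXRs), which sense oxidised sterols, and lipoprotein lipase, which apolipoprotein C-II activates, releases fatty acids that FABP5 binds inside the cell.

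The 4 cluster genes span 29.4 kb of chromosome 7 (GRCm39, positions 19405504 to 19434947), all on the minus strand. *Apoe* (ENSMUSG00000002985) lies at 19430034 to 19434947, *Apoc1* (ENSMUSG00000040564) at 19422540 to 19427328, *Apoc4* (ENSMUSG00000074336) at 19412005 to 19415405 and *Apoc2* (ENSMUSG00000002992) at 19405504 to 19411877. Reads of this cluster cannot always be assigned to 1 gene: the annotated gene *Apoc2l* covers both *Apoc2* and *Apoc4*, and *Gm71725* is antisense to *Apoe*. Libraries of sorted SOD1G93A cells held from 0 to 118 counts of *Apoc2l*. The other 6 genes are scattered over the genome: *Lpl* (ENSMUSG00000015568) at 69284603 to 69360100 on chromosome 8, *Abca1* (ENSMUSG00000015243) at 53030787 to 53159900 on chromosome 4, *Abcg1* (ENSMUSG00000024030) at 31276649 to 31336969 on chromosome 17, *Soat1* (ENSMUSG00000026600) at 156252095 to 156303864 on chromosome 1, *Plin2* (ENSMUSG00000028494) at 86565912 to 86588459 on chromosome 4 and *Fabp5* (ENSMUSG00000027533) at 10077602 to 10081674 on chromosome 3.

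*Abca1* and *Soat1* are the 2 members called higher in LAG-3-/- microglia at P140, and the 250 bases before the start of their canonical transcripts are shown for that reason, read from GRCm39 on the minus strand of both genes. Capitals mark matches, on either strand, to AGGTCA (the core of many nuclear receptor elements), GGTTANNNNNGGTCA (a spaced pair of such cores, the layout known of LXR elements), CACGTG (an E-box), GGGCGG (a GC box), TATAAA and CCAAT. The spaced form was written after the *Abca1* sequence had been seen, so its presence there was fixed in advance and its frequency supports nothing.
Abca1, chr4:53159901-53160150: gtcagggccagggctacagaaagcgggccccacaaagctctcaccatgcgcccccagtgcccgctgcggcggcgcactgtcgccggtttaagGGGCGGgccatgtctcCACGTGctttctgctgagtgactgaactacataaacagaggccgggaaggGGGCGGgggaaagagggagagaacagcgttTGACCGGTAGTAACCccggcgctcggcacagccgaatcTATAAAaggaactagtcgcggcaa
Soat1, chr1:156301902-156302151: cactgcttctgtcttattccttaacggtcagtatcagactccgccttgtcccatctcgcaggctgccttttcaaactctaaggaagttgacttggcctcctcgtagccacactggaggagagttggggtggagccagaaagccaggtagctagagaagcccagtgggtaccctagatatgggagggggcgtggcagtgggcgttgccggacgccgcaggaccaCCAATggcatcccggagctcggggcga
*Abca1* held the spaced pair from 62 bases before the start, together with 1 CACGTG, 2 GGGCGG and 1 TATAAA, and *Soat1* held 1 CCAAT. The spaced form occurred in 0.0184% and AGGTCA in 13.1% of the 21770 protein-coding promoters of this length, the latter in 1 member (*Plin2*), CACGTG in 6.26% and 1 member, GGGCGG in 36.3% and 5 members, TATAAA in 11.9% and 2 members, and CCAAT in 36.5% and 4 members. These are matches of letters and say nothing of binding.

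Levels are given as CPM (counts relative to the library size, after TMM scaling), and libraries are listed by their replicate number. Totals ran from 9403475 to 22850586 counts in the LAG-3-sorted libraries, 23981406 to 49512632 in the stage libraries and 19430102 to 26994524 in the spinal cords, so that 3 counts were worth at most 0.261, 0.171 and 0.172 CPM. *Lag3* itself followed the labels of fraction and genotype. It lay at 0.508 to 9.99 CPM in WT, 34.8 to 57.8 CPM in LAG-3-low and 146 to 195 CPM in LAG-3-high libraries. In the stage table it lay at 53.4 to 63.0 CPM at P120 and 24.5 to 28.1 CPM at P140 in LAG-3+/+ microglia. This drop with age had no overlap but did not pass the test (log2 fold change -1.19, SE 0.52, adjusted p = 0.136). LAG-3-/- microglia lay at 0.0239 to 0.462 CPM. The LAG-3+/+ and LAG-3-/- spinal cords lay at 43.4 to 74.5 and 5.50 to 5.72 CPM. The sorted fractions were not equally pure: 10 neutrophil marker genes summed to 5972 to 70511 CPM in WT, 22825 to 66376 CPM in LAG-3-low and 3.48 to 9.67 CPM in LAG-3-high libraries, and 6 monocyte markers to 20.4 to 2724, 1613 to 4619 and 0.200 to 6.46 CPM. The 8 microglial markers summed to 29336 to 35794, 15623 to 23134 and 23026 to 25269 CPM. These markers include *Tmem119*, *P2ry12* and *Cx3cr1*, which the study reports as reduced in LAG-3-high microglia. Their sum therefore need not follow the share of microglia, here or in the spinal cords. The part of neutrophils and monocytes in the differences below was not tested.

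LAG-3-high microglia held more of 6 members than LAG-3-low microglia without overlap between libraries. In the fit over all sorted groups *Abca1* was the only one that passed the test across all genes. The calls changed with the libraries in the fit, as given below. In *Apoe* the LAG-3-low libraries lay at 34127, 28863, 22623, 20406 and 30987 CPM. The LAG-3-high libraries lay at 91008, 94700, 86508, 70145 and 94531 CPM. The lowest LAG-3-high library thus stood above the highest LAG-3-low library, and the log2 fold change was 1.67 (SE 0.56), but its adjusted p of 0.159 missed the threshold of 0.1. With the 2 fractions alone the adjusted p was 1.2e-05, and by DESeq2 it was 0.0616. The WT libraries, at 2182, 148, 4044 and 697 CPM, varied widely among themselves and were all below both fractions. Against WT, *Apoe* was higher by a log2 fold change of 3.95 (SE 0.67, adjusted p = 0.00202) in LAG-3-low and 5.63 (SE 0.73, adjusted p = 0.000151) in LAG-3-high microglia.

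The transporter gene *Abca1* behaved differently from *Apoe* in these fractions. The WT libraries lay at 192, 155, 117 and 159 CPM and the LAG-3-low libraries at 202, 129, 162, 212 and 194 CPM. These 2 groups overlapped (log2 fold change 0.21, 95% interval -0.21 to 0.62, adjusted p = 0.503). The LAG-3-high libraries lay at 465, 381, 381, 318 and 392 CPM, all above every other library. The log2 fold change was 1.11 (SE 0.18, adjusted p = 0.00377) against LAG-3-low and 1.31 (SE 0.20, adjusted p = 0.000464) against WT microglia. *Abca1* thus passed both thresholds (adjusted p under 0.1 and an absolute log2 fold change above 1) between the fractions, as did 0.818% of the genes tested for being higher. Corrected for the length and GC content of transcripts, its log2 fold change was 1.0 (adjusted p = 0.00883), just under the fold minimum, and on library totals without TMM factors 0.72 (adjusted p = 0.0624).

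*Abcg1*, the partner transporter that loads cholesterol onto larger particles, lay at 98.6, 102, 67.7, 76.7 and 91.9 CPM in LAG-3-low and at 189.5, 216, 198, 163 and 193 CPM in LAG-3-high microglia. *Soat1*, whose enzyme makes cholesterol esters, lay at 353, 293, 208, 258 and 320.1 CPM against 596, 570.4, 525, 510.4 and 606 CPM. Neither gene's ranges overlapped. Their log2 fold changes were 1.13 (SE 0.34, adjusted p = 0.108) and 0.97 (SE 0.31, adjusted p = 0.136). With the 2 fractions alone *Abcg1* was called (adjusted p = 0.000165), whereas *Soat1* was called under no alternative. In WT libraries *Abcg1* lay at 28.2, 12.8, 18.5 and 64.6 CPM and *Soat1* at 43.1, 110.0, 145 and 39.2 CPM, below every SOD1G93A library. Both were called higher than WT in LAG-3-low (1.49 and 1.76 on the log2 scale) and in LAG-3-high microglia (2.63 and 2.73).

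The lipase and fatty acid genes did not pass the test between the fractions in the fit over all sorted groups. *Lpl* lay at 719, 893, 841, 626 and 687 CPM in LAG-3-low and at 1943, 1723, 1707, 1777 and 1488 CPM in LAG-3-high libraries (log2 fold change 1.20, SE 0.41, adjusted p = 0.170). *Fabp5* lay at 85.2, 76.9, 54.7, 40.4 and 71.2 CPM against 325, 218, 207, 180.2 and 272 CPM (1.87, SE 1.06, adjusted p = 0.559). Neither pair of ranges overlapped. With the 2 fractions alone both were called (adjusted p = 1.8e-05 for *Lpl* and 0.000117 for *Fabp5*). DESeq2 called *Lpl* (adjusted p = 0.0900) but not *Fabp5*. *Fabp5* was near absent from WT libraries, at 0, 0.174 and 0 CPM, except for 16.3 CPM in WT replicate 4, and *Lpl* lay there at 93.6, 19.1, 125 and 22.8 CPM. In the droplet coat gene *Plin2* the fractions overlapped, at 189, 226, 101, 111 and 122 CPM in LAG-3-low and 249, 200.3, 160.3, 175 and 159 CPM in LAG-3-high libraries (0.33, SE 0.56, adjusted p = 0.944). Its log2 fold change was -0.05 without TMM factors, so no direction can be given. *Plin2* was lower in WT, at 24.1, 51.6, 78.7 and 2.28 CPM.

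The C apolipoproteins of the cluster were expressed at far lower levels than *Apoe*. *Apoc1*, a lipoprotein component that inhibits lipid transfer and lipases, had no count in any of the 4 WT libraries. It lay at 20.3, 6.34, 3.77, 4.17 and 16.1 CPM in LAG-3-low and at 50.3, 19.4, 32.7, 24.6 and 57.3 CPM in LAG-3-high libraries. Against a floor of 3 counts in the shallowest WT library, *Apoc1* was at least 38.8-fold higher in LAG-3-low and at least 141-fold higher in LAG-3-high microglia. *Apoc2* lay at 9.23, 0, 2.37 and 0 CPM in WT, 27.2, 21.6, 9.10, 13 and 5.45 CPM in LAG-3-low and 40.0, 35.7, 30.1, 22.2 and 36.4 CPM in LAG-3-high libraries. *Apoc4*, the least studied of the 4, lay at 8.41, 2.18, 2.60 and 2.09 CPM, 16.3, 6.0, 8.56, 4.6 and 7.85 CPM, and 35.5, 24.1, 21.5, 14.3 and 27.8 CPM. In all 3 the ranges of the SOD1G93A fractions overlapped, and the adjusted p between the fractions was 0.163, 0.822 and 0.194. With the 2 fractions alone it was 0.0307, 0.0973 and 0.0177. LAG-3-low replicate 5, the lowest of these libraries in *Apoc2*, held 76 counts of the overlapping *Apoc2l*. There 3 counts were worth 0.131 CPM, and the part of shared reads in the overlap was not tested. Per 1000 *Apoe* counts the LAG-3-high libraries held 0.204 to 0.606 *Apoc1*, 0.317 to 0.440 *Apoc2* and 0.204 to 0.390 *Apoc4* counts. The LAG-3-low libraries held 0.167 to 0.595, 0.176 to 0.796 and 0.208 to 0.478, ranges that overlapped with those of LAG-3-high libraries for all 3 genes.

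Counted together, 1 of the 10 members was called higher in the LAG-3-high fraction relative to LAG-3-low, where 0.818% of all genes tested were, and 6 of 10 were higher without overlap, where 8.95% of genes were. Against WT, 10 of 10 were called higher in LAG-3-high microglia (12.1% of genes), and 7 of 10, all but *Apoc2*, *Apoc4* and *Abca1*, in LAG-3-low microglia (10.9% of genes). The calls between the fractions changed with the WT libraries in the fit, in which all sorted groups share 1 estimate of the spread. The SD of CPM among WT libraries was 19.6% of the mean in *Abca1*. In the other members with WT counts it ran from 61.6% (*Soat1*) to 197% (*Fabp5*). With only the 10 libraries of the SOD1G93A fractions 8 members were called. When the 2 WT libraries richest in neutrophil markers were left out, 7 were called (*Abca1*, *Apoe*, *Apoc1*, *Apoc4*, *Lpl*, *Abcg1* and *Fabp5*). The shares of all genes called in these fits are not given here, so 8 and 7 cannot be set against 0.818%. The cause of the change was not tested. The comparisons with WT share the WT libraries and are not independent.

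**Figure D1:**
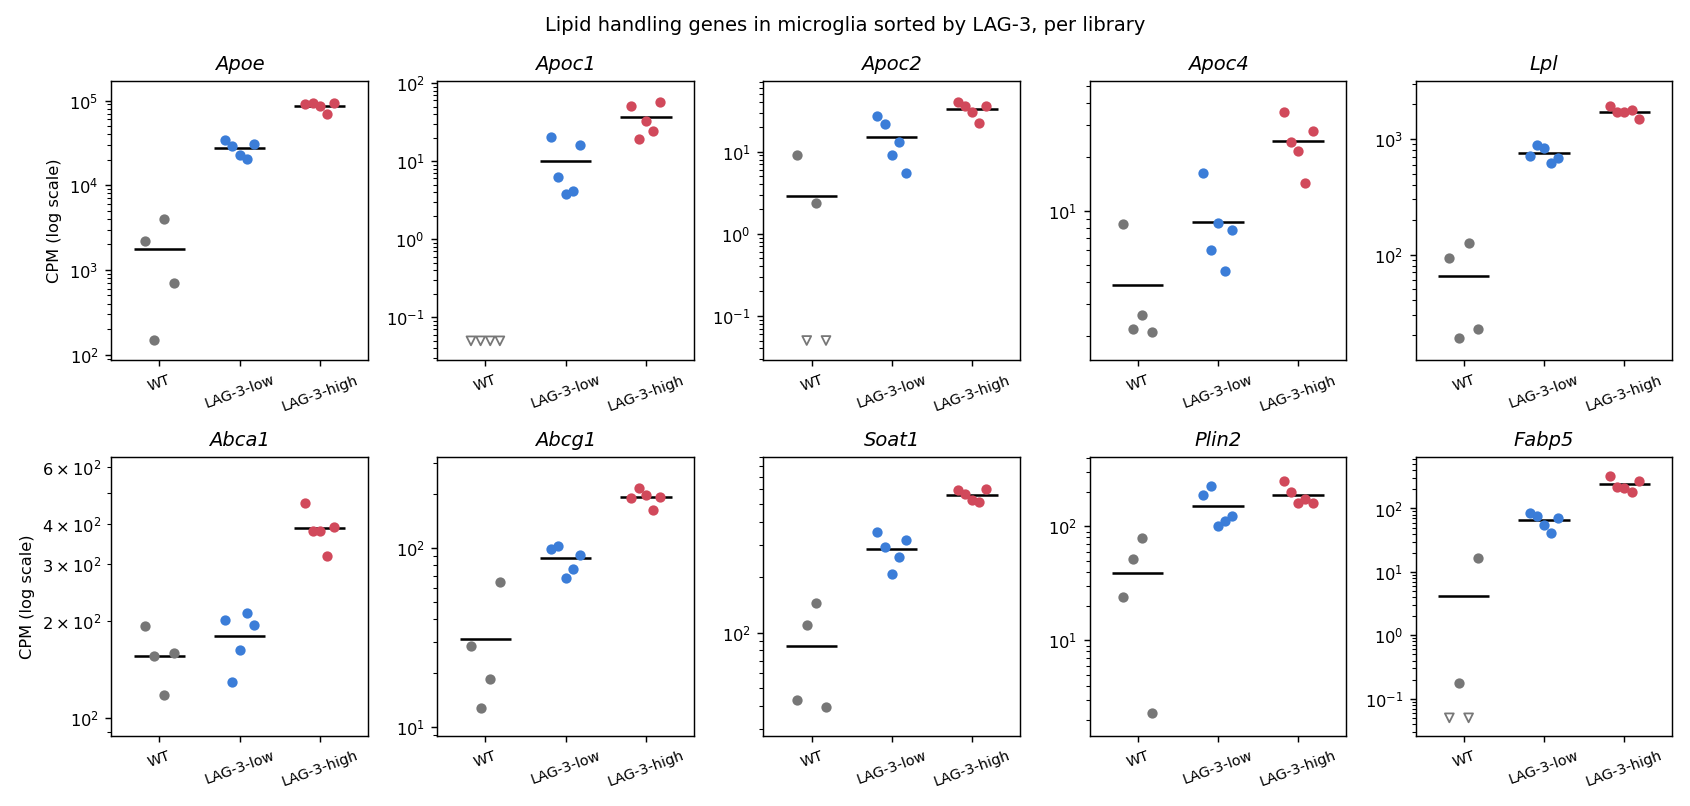
CPM (log axis) of the 10 members in each library of WT microglia and of the LAG-3-low and the LAG-3-high fraction, with 1 panel per gene, a black line for the group mean and open triangles at the bottom for libraries with 0 counts. *Apoe*, *Lpl*, *Abca1*, *Abcg1*, *Soat1* and *Fabp5* do not overlap between the SOD1G93A fractions, and *Abca1* is the member whose WT and LAG-3-low points lie at one level.

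Per kilobase of canonical transcript, the scale on which levels of different genes can be compared, *Apoe* led in LAG-3-high microglia with a mean of 40063 CPM per kb, followed by *Lpl* at 419.9 and *Fabp5* at 242. Then came *Plin2* at 92.1, *Soat1* at 67.1, *Apoc4* at 45.5, *Apoc2* at 41.2, *Abca1* at 37.7, *Abcg1* at 32.9 and *Apoc1* at 26.2 CPM per kb. *Apoe* alone took up 6.41% to 8.11% of all counts in a LAG-3-high library and 0.0180% to 0.444% in a WT library.

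Over the 14 sorted libraries the 5 genes outside the 10 whose log2 CPM was most alike to that of *Apoe* were *Itgax* (r = 0.980), *Egr1* (0.971), *Ddi2* (0.968), *Colec12* (0.965) and *Spp1* (0.964), out of 8908 genes with a mean of at least 10 CPM. Over the 12 stage libraries they were *Anxa5* (0.980), *Rpl10a* (0.979), *Spp1* (0.978), *Pdcd1* (0.975) and *Pld3* (0.974), out of 8665. These are descriptions over libraries of 3 and 4 groups, which share the group differences, and *Spp1*, the osteopontin gene, was on both lists.

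Among LAG-3+/+ microglia, *Apoe*, *Plin2* and *Apoc4* were called higher at P140 than at P120, and *Abca1* was called lower. In *Apoe* the P120 libraries lay at 23959, 17578 and 13202 CPM and the P140 libraries at 54972, 105410 and 66840 CPM. All P140 libraries were higher, with a log2 fold change of 2.05 (SE 0.64, adjusted p = 0.0444). *Plin2* lay at 97.9, 108 and 91.3 CPM at P120 and at 264, 396 and 233 CPM at P140 (1.59, SE 0.34, adjusted p = 0.0115). It was the one member whose call held in each of the 6 fits that left out 1 library of these groups. The call held in 3 of these fits for *Apoe*, 2 for *Abca1* and 1 for *Apoc4*. *Apoc4* lay at 9.40, 4.04 and 5.43 CPM against 15.1, 24.8 and 26.4 CPM (1.81, SE 0.68, adjusted p = 0.0849).

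*Abca1* went the other way in the same libraries, from 191, 171 and 146 CPM at P120 to 118, 84.1 and 68.7 CPM at P140. Every P140 library was below every P120 library, and the log2 fold change was -0.91 (SE 0.31, adjusted p = 0.0616). *Abcg1*, at 129, 119 and 114 CPM against 65.0, 86.5 and 39.1 CPM, and *Soat1*, at 305, 305 and 316 CPM against 289, 202 and 186 CPM, were also lower without overlap but missed the threshold (-0.93, adjusted p = 0.152; -0.45, adjusted p = 0.137). *Apoe* and *Abca1*, both LXR targets by background, therefore moved in opposite directions between these ages. The drop of *Abca1* shrank to -0.45 (adjusted p = 0.306) once length and GC content of transcripts were corrected for. Fewer genes had a count in the P140 LAG-3+/+ libraries, 18896 to 20489, against 24136 to 24942 at P120, and the part of this in the result was not tested. *Abca1* in these P140 libraries (68.7 to 118 CPM) lay below both sorted fractions of P140 SOD1G93A microglia (129 to 212 and 318 to 465 CPM). So did *Lag3*, at 24.5 to 28.1 CPM against 34.8 to 57.8 and 146 to 195 CPM. The cause of this gap was not tested. The same P140 libraries are the reference for the genotype comparison at that age.

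The remaining members were higher at P140 in every LAG-3+/+ library without passing the test in the fit over all stage groups. *Lpl* lay at 1018, 1063 and 854 CPM and then at 1276, 1596 and 1588 CPM (adjusted p = 0.175). *Fabp5* lay at 63.9, 38.0 and 40.2 CPM and then at 140.1, 202 and 156 CPM (adjusted p = 0.153). *Apoc2* lay at 17.4, 10.6 and 9.42 CPM and then at 32.1, 62.8 and 38.7 CPM (adjusted p = 0.133), and *Apoc1* at 13.6, 3.07 and 8.47 CPM and then at 13.7, 29.3 and 41.0 CPM (adjusted p = 0.311). In *Apoc1* the separation rested on P140 replicate 1, which lay just above P120 replicate 1. With the 2 compared groups alone *Lpl*, *Fabp5*, *Apoc2* and *Apoc1* were called (adjusted p = 0.0270, 0.00611, 0.0186 and 0.0996). DESeq2 called *Apoc2* (adjusted p = 0.0356) and *Lpl* (adjusted p = 0.0686) of these genes. In all, 3 of 10 members were called higher (11.9% of genes) and 1 lower (15.5% of genes), and 7 were higher (16.8% of genes) and 3 lower (25.4% of genes) without overlap. The median over all genes tested was -0.22, and without TMM factors it was -0.70. Without these factors 2 members were called higher and 3 lower, and once length and GC content were corrected for 3 were called higher and 0 lower. Leaving out single libraries left between 1 and 5 members called: P120 replicates 1, 2 and 3 gave 2, 1 and 2 members, and P140 replicates 2 and 3 gave 1 and 2.

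**Figure D2:**
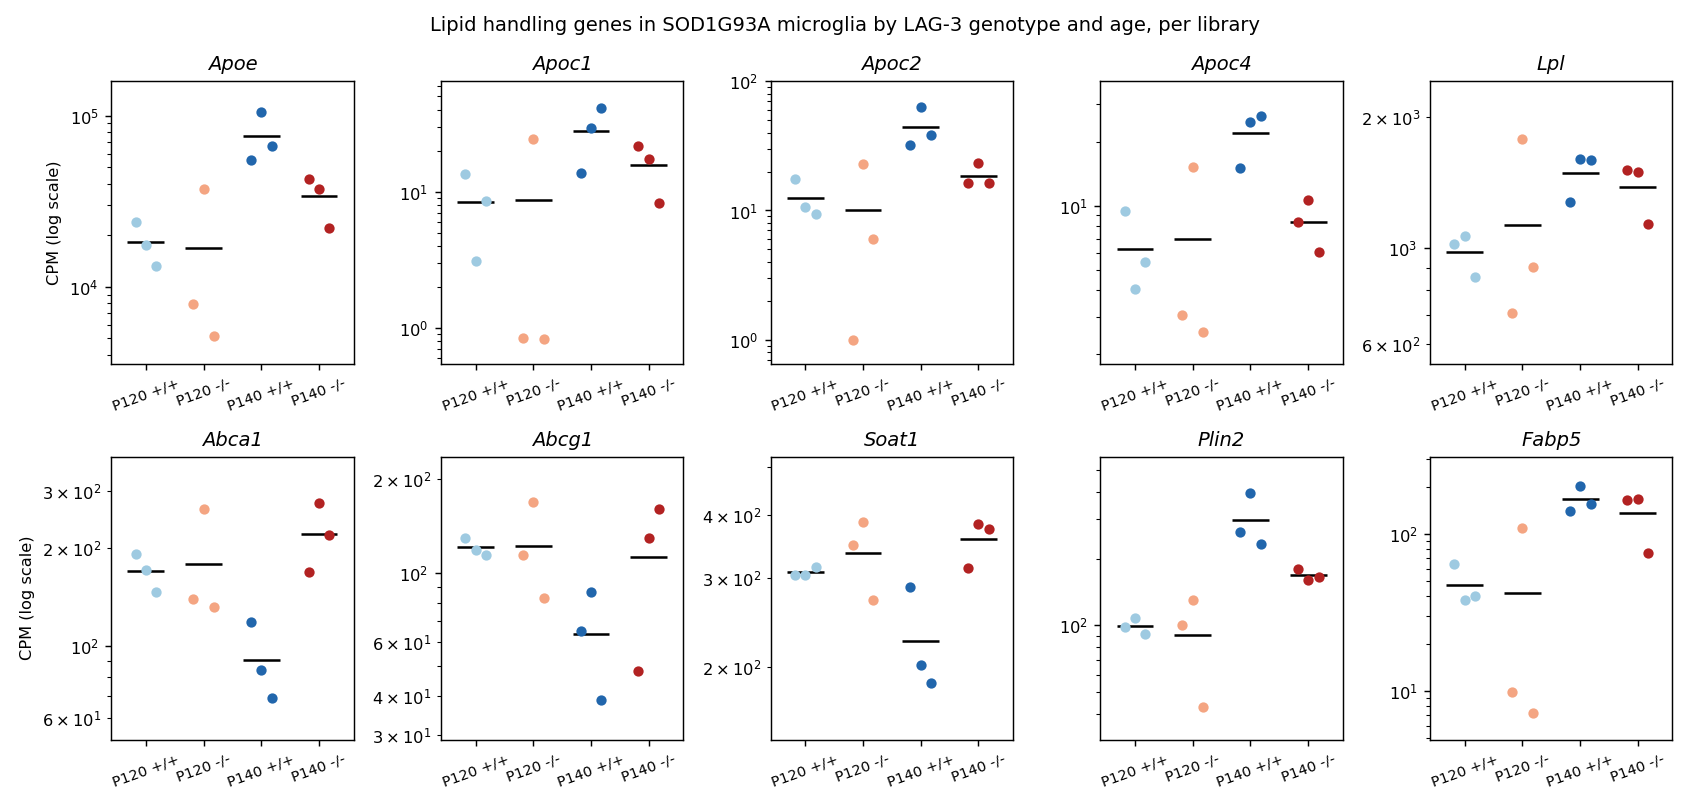
CPM (log axis) of the 10 members in each library of P120 and P140 SOD1G93A microglia with intact (+/+) or deleted (-/-) *Lag3*, 1 panel per gene, with a black line for the group mean. By mean, the P140 +/+ group is the highest in *Apoe*, *Apoc1*, *Apoc2*, *Apoc4*, *Lpl*, *Plin2* and *Fabp5* and the lowest in *Abca1*, *Abcg1* and *Soat1*, and 1 of the 3 P120 -/- libraries stands above the other 2 in most panels.

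At P120 no member passed the test between the genotypes. edgeR called 2 genes of 18669 in all (0.0107%), and 0 of 10 members passed, with 0 at an unadjusted p under 0.05 and 0 called by DESeq2, which gave no p for *Fabp5* in the stage table. The spread in LAG-3-/- microglia was wide: *Apoe* lay at 7928, 37416 and 5158 CPM, and replicate 2 also led the group in *Apoc1* (0.837, 24.5 and 0.827 CPM) and *Fabp5* (9.79, 109 and 7.22 CPM). Without replicate 2 the log2 fold change of *Apoe* was -1.48 in place of -0.12, and 4 members had an unadjusted p under 0.05, with 0 called. With it, the 95% interval of the *Apoe* difference reached from -1.46 to 1.23 on the log2 scale. The intervals were narrower for *Soat1*, at 350, 388 and 272 CPM in LAG-3-/- microglia (-0.31 to 0.56), and for *Abca1*, at 140, 265 and 131 CPM (-0.60 to 0.75). *Plin2* lay at 100.3, 129.5 and 42.7 CPM, *Abcg1* at 114, 169 and 82.6 CPM and *Lpl* at 708, 1776 and 904 CPM, all straddling the LAG-3+/+ libraries. The neutrophil markers summed to 1743 to 2576 CPM in the LAG-3+/+ and 2.68 to 6.58 CPM in the LAG-3-/- libraries of this age.

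At P140 *Abca1* and *Soat1* passed the test as higher in LAG-3-/- than in LAG-3+/+ microglia, *Soat1* only narrowly. *Abca1* lay at 169, 275 and 219 CPM in LAG-3-/- libraries against 118, 84.1 and 68.7 CPM. The groups did not overlap, and the log2 fold change was 1.29 (SE 0.31, adjusted p = 0.0473). *Soat1* lay at 314, 385 and 376 CPM against 289, 202 and 186 CPM (0.67, SE 0.20, adjusted p = 0.0817). Both calls rested on few libraries: leaving out LAG-3-/- replicate 2 or 3, or LAG-3+/+ replicate 2 or 3, raised the adjusted p of *Abca1* to 0.193, 0.150, 0.131 and 0.129 and that of *Soat1* to 0.270, 0.225, 0.211 and 0.216. Under 9 other ways of processing, *Abca1* kept its call in 8 and *Soat1* in 3, with adjusted p of up to 0.283 and a log2 fold change down to 0.38 for *Soat1*. *Abcg1*, the other transporter, lay at 48.1, 129.5 and 160.4 CPM against 65.0, 86.5 and 39.1 CPM, with LAG-3-/- replicate 1 among the LAG-3+/+ values (0.83, SE 0.43, adjusted p = 0.259).

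No member passed as lower. *Apoe* was at 42848, 37507 and 22027 CPM in LAG-3-/- libraries, below all 3 LAG-3+/+ libraries, with a log2 fold change of -1.15 (SE 0.62) that did not pass (adjusted p = 0.280). *Apoc2* at 16.5, 23.2 and 16.3 CPM, *Apoc4* at 8.40, 10.7 and 6.08 CPM and *Plin2* at 179.9, 160.4 and 166 CPM were likewise below every LAG-3+/+ library (-1.26, -1.40 and -0.82, with adjusted p = 0.357, 0.229 and 0.172). DESeq2 called 4 members, adding *Apoc4* and *Plin2* as lower. *Apoc1* at 21.5, 17.5 and 8.19 CPM, *Lpl* at 1509.9, 1497 and 1136 CPM and *Fabp5* at 163, 167 and 75.7 CPM overlapped with LAG-3+/+, and the sign of *Lpl* and *Fabp5* turned without TMM factors. Of the 10 members, 2 were called higher (7.22% of genes), 2 were higher without overlap (12.2% of genes) and 4 were lower without overlap (8.92% of genes). The neutrophil markers ranged from 3.84 to 3482 CPM in LAG-3+/+ and from 4.02 to 4616 CPM in LAG-3-/- libraries. The 6 monocyte markers summed to 214, 6.08 and 0.154 CPM in LAG-3+/+ and to 7.62, 47.3 and 495.9 CPM in LAG-3-/- libraries, and 1 of them, *Ccr2*, passed the test as higher, at 0.0954 to 36.6 CPM in LAG-3-/- and 0 to 0.0830 CPM in LAG-3+/+ libraries (adjusted p = 0.0854). Genes with a count numbered 20260, 23896 and 23459 in LAG-3-/- and 20269, 18896 and 20489 in LAG-3+/+ libraries, and the TMM factors were 0.848, 0.980 and 1.12 against 0.855, 0.734 and 0.766, so that LAG-3-/- replicates 2 and 3 exceeded every LAG-3+/+ library in both. The part of these differences in the result was not tested.

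Within LAG-3-/- mice no member passed the test between the ages. edgeR called 0 of 10 members and 0% of genes, with 1 member (*Plin2*, 0.89, adjusted p = 0.510) at an unadjusted p under 0.05, and DESeq2 called 0. Without P120 LAG-3-/- replicate 2, the library high in *Apoe*, *Fabp5* was called (3.99, adjusted p = 0.0609) and 8 of 10 members had an unadjusted p under 0.05. Whether the genotypes differed in their change with age was tested by the interaction of genotype and stage, which called 0.171% of genes and 0 of 10 members, with 1 at an unadjusted p under 0.05 and 0 by DESeq2. That member was *Abca1* (1.22, SE 0.43, unadjusted p = 0.0169, adjusted p = 0.270). The value for *Apoe* was -1.03 (SE 0.87, adjusted p = 0.642), and it turned to 0.33 without P120 LAG-3-/- replicate 2. A change with age in 1 genotype and not in the other is thus not shown for any member.

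Over the 14 sorted libraries, the 12 pairs of 1 cluster gene with *Abca1*, *Abcg1* or *Soat1* had a Pearson correlation of log2 CPM between 0.60 and 0.93. Over the 12 stage libraries all 12 pairs were negative, from -0.47 to -0.08, while the cluster genes stayed correlated among themselves (0.86 to 0.95) and so did *Abca1*, *Abcg1* and *Soat1* (0.71 to 0.93). Over the 6 spinal cords the 12 pairs ran from -0.38 to 0.61, with 4 negative. The difference between the tables was not tested, and these correlations mix group and library differences and are a description only. Within P120 LAG-3-/- microglia, replicate 2 was the highest library in both *Apoe* and *Abca1*. Across the groups, the P140 LAG-3+/+ libraries had a log2 ratio of *Abca1* to *Apoe* CPM between -10.29 and -8.86, below the -7.98 to -6.65 of P140 LAG-3-/- libraries and the -6.97 to -6.50 of P120 LAG-3+/+ libraries.

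**Figure D3:**
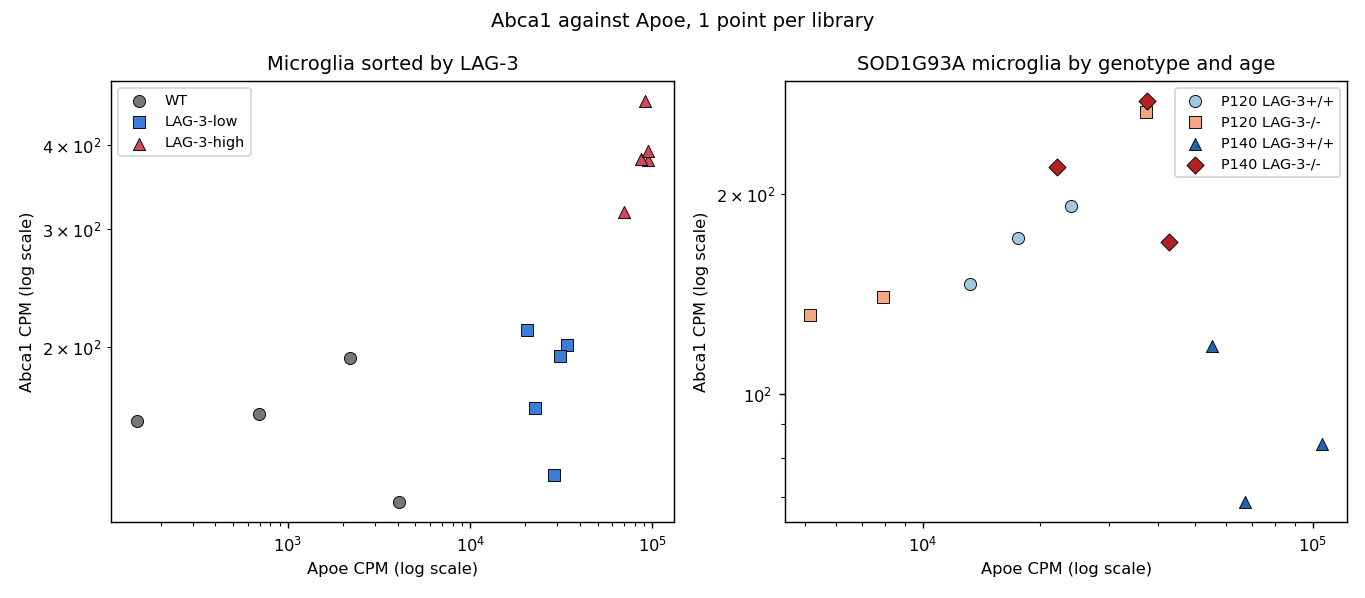
*Abca1* CPM against *Apoe* CPM, both on log axes, with 1 point per library for the sorted fractions (left) and the stage groups (right). LAG-3-high libraries are at the top of both axes in the sorted table, whereas the P140 LAG-3+/+ libraries of the stage table join the highest *Apoe* with the lowest *Abca1*.

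**Figure D4:**
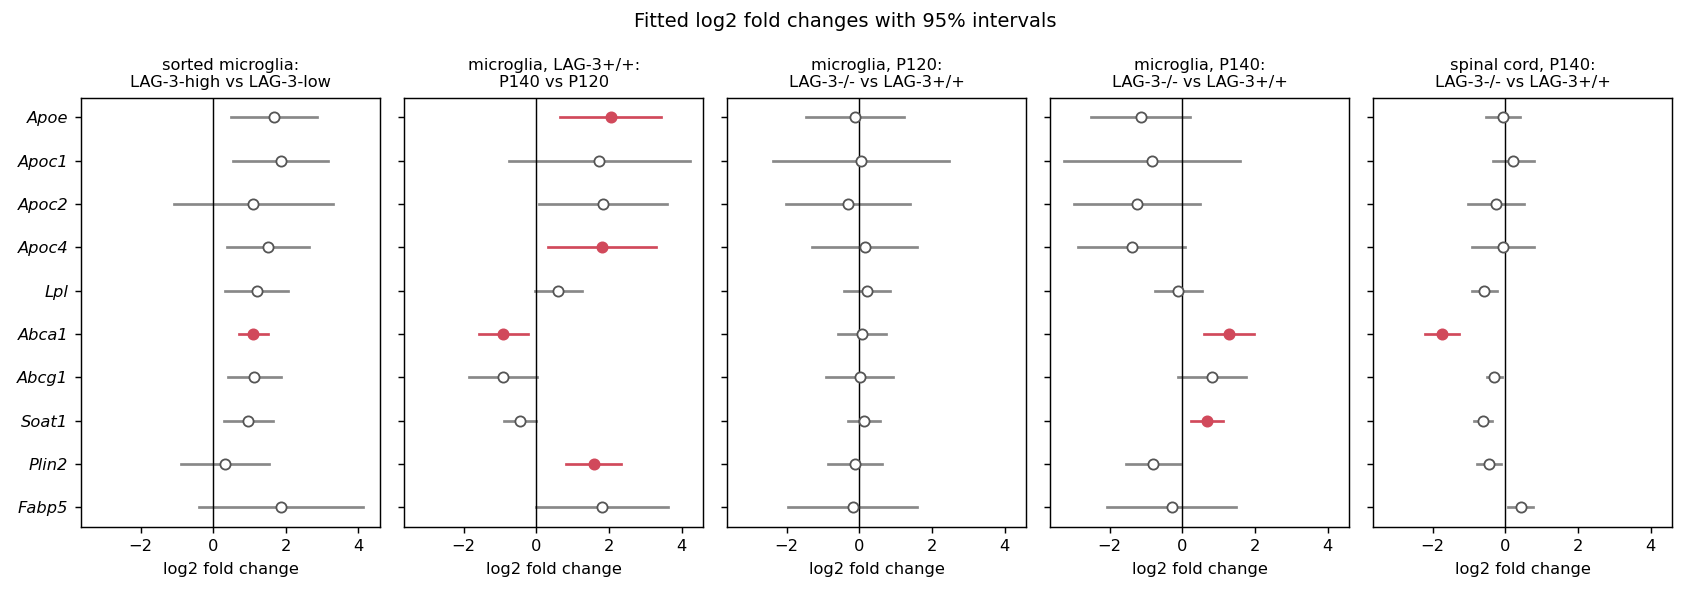
Fitted log2 fold changes of the 10 members in 5 comparisons, with 95% intervals (t quantile at the degrees of freedom of the fit) as bars; filled red points passed the thresholds of that comparison and open points did not. *Abca1* is called in 4 of the 5 panels, at 1.11, -0.91, 1.29 and -1.73.

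In whole lumbar spinal cord at P140, *Abca1* was lower in LAG-3-/- mice. The LAG-3+/+ cords lay at 289, 222 and 262 CPM and the LAG-3-/- cords at 92.3, 52.0 and 88.1 CPM. The groups were far apart, with a log2 fold change of -1.73 (SE 0.21, adjusted p = 0.000477), and the call held in each of the 6 fits that left out 1 cord. It was the only member that passed the threshold with the fold minimum, which 3.15% of genes passed for being lower. The sign was opposite to that in sorted microglia of the same age and genotypes. A spinal cord holds many cell types, and in such bulk samples fewer cells of a type and less RNA per cell cannot be told apart.

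*Soat1* was also opposite to sorted microglia, at 82.0, 73.2 and 79.2 CPM in LAG-3+/+ and 55.6, 44.7 and 52.3 CPM in LAG-3-/- cords (-0.62, SE 0.11, adjusted p = 0.00146). *Abcg1* lay at 92.0, 95.5 and 91.2 CPM against 75.4, 71.2 and 79.6 CPM (-0.30, SE 0.10, adjusted p = 0.0275) and *Plin2* at 70.0, 49.5 and 60.7 CPM against 48.8, 36.6 and 46.6 CPM (-0.45, SE 0.15, adjusted p = 0.0315). In all 3 every LAG-3-/- cord was below every LAG-3+/+ cord. *Lpl*, at 162, 124 and 164 CPM against 125, 87.4 and 89.0 CPM, overlapped by 1 cord (-0.58, SE 0.16, adjusted p = 0.0160). *Fabp5* was higher, at 164, 140.3 and 169.7 CPM against 264, 200.3 and 169 CPM (0.42, SE 0.16, adjusted p = 0.0599), and its ranges overlapped.

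*Apoe*, at 6085, 4672 and 5576 CPM in LAG-3+/+ and 6785, 3873 and 4917 CPM in LAG-3-/- cords, showed no difference beyond the spread (-0.07, 95% interval -0.53 to 0.40, adjusted p = 0.826). *Apoc1*, *Apoc2* and *Apoc4* lay between 0.473 and 4.92 CPM in all 6 cords, with adjusted p from 0.537 to 0.915. Without a fold minimum, 5 of 10 members were lower (23.9% of genes) and 1 higher (23.1% of genes), and 4 of 10 were lower without overlap, against 26.1% of genes. The cell markers moved as well: the microglial markers summed to 1119 to 1405 CPM in LAG-3+/+ and 808 to 1097 CPM in LAG-3-/- cords, the 8 astrocyte markers to 13116 to 14973 and 7707 to 12256 CPM, the 6 monocyte markers to 48.3 to 56.5 and 27.2 to 32.7 CPM and the 6 oligodendrocyte markers to 16796 to 18330 and 23780 to 33225 CPM. On the log2 scale of the group means these were -0.45, -0.50, -0.81 and 0.70. The astrocyte markers were split. *Aqp4*, *Slc1a2*, *Sox9* and *Gja1* were lower (-0.99, -0.85, -0.84 and -0.44, adjusted p of 0.0148 or less). *Gfap*, *Slc1a3*, *Aldh1l1* and *Gjb6* lay at -0.33, -0.14, -0.07 and 0.07 (adjusted p of 0.257 or more). The monocyte sum was mostly *Vcan*, at 49.8 CPM in LAG-3+/+ and 27.6 CPM in LAG-3-/- cords by mean. Each other monocyte marker lay at 1.92 CPM or less by mean. Of these *Chil3* was higher in LAG-3-/- cords (0.590 against 0.0417 CPM) and the rest were lower. In LAG-3-low microglia, where *Ccr2* averaged 125 CPM, *Vcan* had no count in 4 of 5 libraries. The sum in cords thus cannot be read as a level of monocytes. The part of these marker differences in the member differences was not tested.

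**Figure D5:**
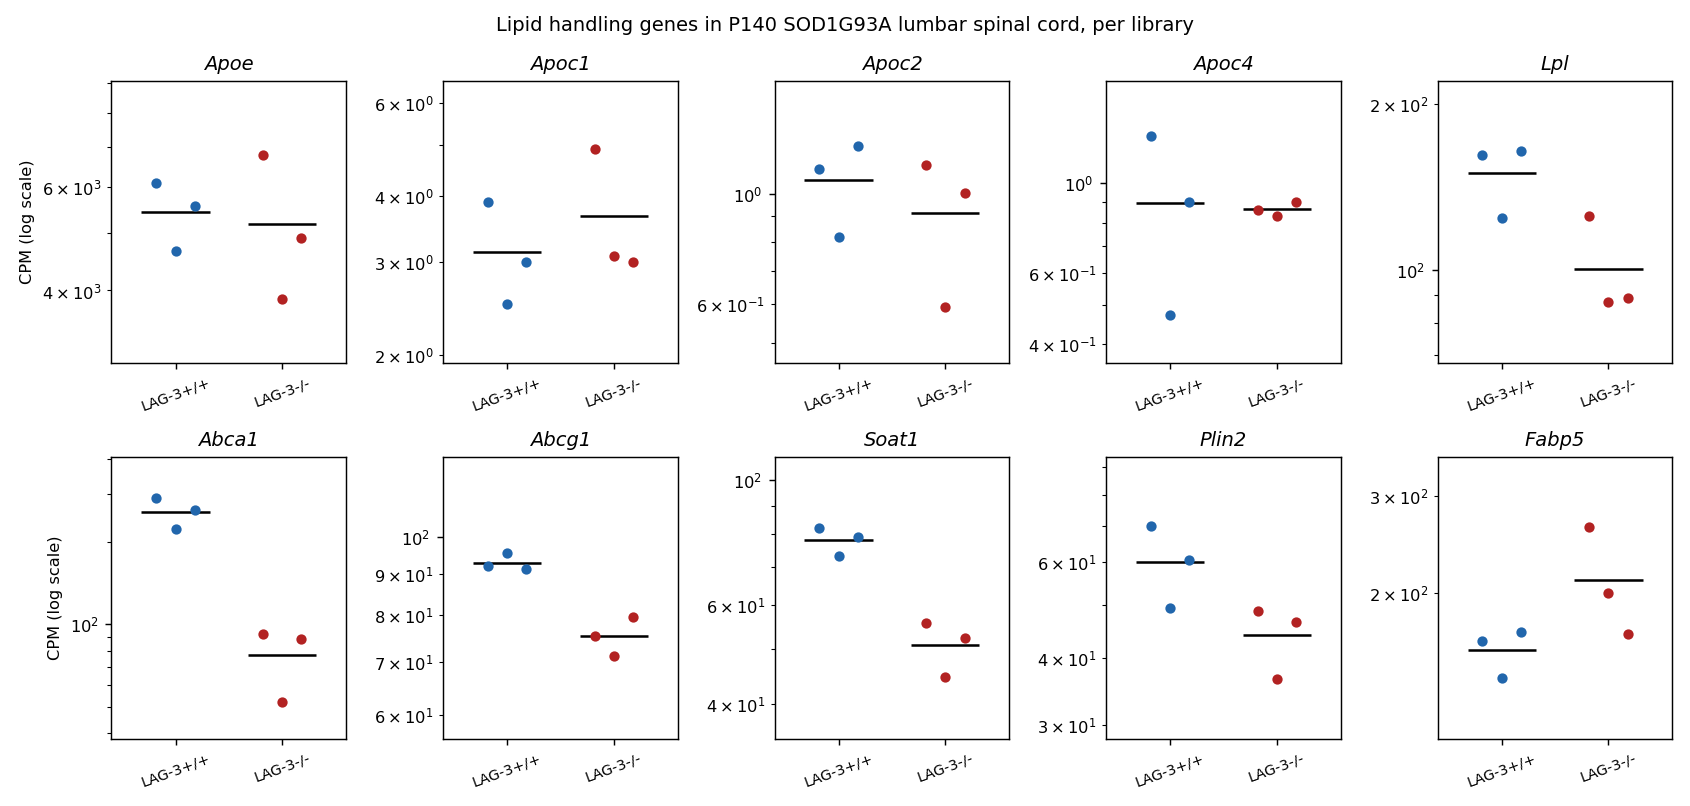
CPM (log axis) of the 10 members in each P140 SOD1G93A lumbar spinal cord with intact (LAG-3+/+) or deleted (LAG-3-/-) *Lag3*, 1 panel per gene, with a black line for the group mean. *Abca1*, *Abcg1*, *Soat1* and *Plin2* do not overlap, and *Apoe* and the C apolipoproteins do.

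The wider pathway was followed in 97 genes of 8 lists, of which 72, 69 and 83 were tested in the 3 tables. In the LAG-3-high fraction 4 exceeded LAG-3-low past the thresholds and 3 fell below it (5.56% and 4.17% of those tested, beside 0.818% and 2.67% of all genes). The genes of lysosomal lipid release and sterol transport held 2 of the 4: *Npc2*, which hands cholesterol out of the lysosome, was at 1440.2 CPM in LAG-3-high and 548 CPM in LAG-3-low microglia by mean (1.39, adjusted p = 0.000863), and *Lipa*, the lysosomal acid lipase, at 650 and 318 CPM (1.03, adjusted p = 0.0211). The list's median log2 fold change was 0.58 over 11 genes, beside -0.02 over all genes tested. Of the LXR list *Rxra*, the partner receptor of the LXRs, was called (32.5 against 8.66 CPM, 1.91, adjusted p = 0.0466, with a list median of 0.39 over 12 genes), and of the fatty acid list *Fabp3*, which binds fatty acids as *Fabp5* does (56.3 against 12.1 CPM, 2.22, adjusted p = 0.0103, list median 0.44 over 10 genes). The 3 lower genes were *Dgat1*, which makes triglycerides (34.6 against 137 CPM, -1.98, adjusted p = 0.00950), the lipolysis inhibitor *G0s2* (0.183 against 26.3 CPM, adjusted p = 0.0199) and the lipoprotein receptor *Lrp8* (0.0254 against 1.86 CPM, adjusted p = 0.0200). Neutrophil and monocyte markers were also far higher in LAG-3-low libraries, as given above, and the part of those cells in these 3 genes was not tested. The droplet and ester list had a median of -0.10 over 15 genes and the receptor list 0.07 over 11. No gene was called among 5 lipase partners, 6 genes beside the Apoe cluster or 2 further apolipoproteins.

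At P140, LAG-3-/- microglia had 7 of 69 pathway genes called as higher and 1 as lower (10.1% and 1.45%, beside 7.22% and 3% of all genes). From the LXR list these were *Srebf1*, the LXR-driven regulator of fatty acid synthesis (26.8 against 7.75 CPM, 1.79, adjusted p = 0.0307), *Rxrb* (32.9 against 19.1 CPM, 0.78, adjusted p = 0.0874) and the desaturase *Scd2* (1.71, adjusted p = 0.0945), with a list median of 0.56 over 12 genes beside 0.14 over all genes. *Lrp1*, a receptor for *Apoe* particles, lay at 277 against 141 CPM (0.97, adjusted p = 0.0822), and *Acsl4*, which activates long fatty acids, at 57.6 against 32.6 CPM (0.82, adjusted p = 0.0685). Of the lipase partners *Sel1l*, needed for lipase folding, was higher (205 against 97.6 CPM, 1.07, adjusted p = 0.0333), and the lipase inhibitor *Angptl4* lay at 1.07 to 3.39 CPM in LAG-3-/- libraries and at 0 in every LAG-3+/+ library (adjusted p = 0.0417), while *Lmf1* was lower (-0.76, adjusted p = 0.0883). No gene of the droplet, lysosomal, neighbour or further apolipoprotein lists was called. At P120 edgeR called 0 of the 69 pathway genes.

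In the spinal cords 2 of 83 pathway genes were called higher and 3 lower (2.41% and 3.61%), beside 4.37% and 3.15% of all genes. The higher genes were *Fabp3* (36.4 against 17.9 CPM, 1.03, adjusted p = 0.00238) and *G0s2* (10.1 against 4.26 CPM, 1.25, adjusted p = 0.000653). *Ppara*, a fatty acid receptor, was lower (0.688 against 2.0 CPM, -1.54, adjusted p = 0.00280), as was the scavenger receptor *Msr1* (2.19 against 4.74 CPM, -1.12, adjusted p = 0.00327) and the oxidised lipoprotein receptor *Olr1* (0.783 against 1.56 CPM, -1.01, adjusted p = 0.0316). Without a fold minimum 22 of the 83 pathway genes were lower and 17 higher, where 23.9% and 23.1% of all genes were. Of the 8 lists, the receptor list is singled out here for its counts, with 7 of 12 genes lower and 0 higher. It was not tested as a set. *Sorl1* was among the lower (263 against 487 CPM, -0.89, adjusted p = 0.000720), and the list's median was -0.48 beside 0.00 over all genes.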

How the data were processed

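Microglia were sorted from lumbar spinal cord and, in a separate set, whole lumbar cords were used; libraries were made with a SMART-Seq kit for sorted cells and a NEBNext directional kit for cords. Per the study's methods and the submitters' processing notes, reads were trimmed with Trim Galore 0.6.7, quantified with Salmon 1.9.0 and summed to genes in R 4.2.1. The authors deposited unnormalised estimated counts per gene, which need not be whole; the annotation release is not given in the sources used here. Estimated assignment shares reads among overlapping and similar genes, and SMART-Seq cDNA does not mark strand.

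The 3 tables were analysed separately in R 4.3.3. Estimated counts were rounded, genes kept by filterByExpr (minimum count 10, minimum total 15), leaving 16508, 18669 and 17702 genes, and tested with edgeR 4.0.16 (TMM factors, quasi-likelihood F test, 1 fit over all groups of a table). P-values were adjusted by the Benjamini-Hochberg method over all genes of a table. The threshold was an adjusted p under 0.1; in the sorted and cord tables a call also needed a log2 fold change beyond 1 in either direction. Standard errors were derived from the F statistic, and 95% intervals use the t quantile at each gene's degrees of freedom. Floors of 3 counts cover counting error only. Correlations used log2 CPM with a prior count of 2. Names, coordinates and lengths came from GENCODE vM39 (GRCm39), in which 71, 66 and 71 identifiers had no name. The promoter background holds the protein-coding genes of that annotation.

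Alternatives were DESeq2 1.42.0, RLE size factors, library totals without TMM factors, no filter on low counts, a filter at a mean of 10 counts, the 2 compared groups alone, a replicate block, the listed sex as a covariate, an offset for length and GC content of transcripts, no fold minimum, and leaving out each library. The scripts were tested on simulated data. Deviations of same-numbered libraries were at most weakly correlated (0 pairs with a correlation over 0.1), and numbers were not used as pairs. This cannot show whether such libraries share their mice.

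The members and gene lists were chosen with earlier results of these data known. All 10 members are named; of each pathway list, up to 2 called genes with the smallest adjusted p are named per comparison, and *Scd2*, *Lmf1* and *Sorl1* were added after their values were seen. Named as most alike to *Apoe* are the 5 genes with a mean of at least 10 CPM and the highest correlation.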

Additional observations from a re-analysis of the deposited data

Results flagged for a closer look

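In 2 groups of 4 or 5 libraries 1 library stood far from the rest. *Apoc4* lay at 8.41 CPM in WT replicate 1, with a gap to the next WT library of 0.920 of the group's range. *Fabp5* lay at 16.3 CPM in WT replicate 4, with a gap of 0.989 of the range. These are 2 of 29 groups examined, and chance alone marks about 1 in 20.

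The genotype comparison at P140 went opposite ways in sorted microglia and in whole spinal cord for 2 members. The log2 fold change of *Abca1* in LAG-3-/- mice was 1.29 in microglia and -1.73 in spinal cord. That of *Soat1* was 0.67 in microglia and -0.62 in spinal cord. In each, all LAG-3-/- libraries lay on one side of all LAG-3+/+ libraries in microglia and on the other side in spinal cord. The difference between the 2 tables, which were normalised separately, was not tested.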

How the results depend on the processing

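Of 1560 values for single members under an alternative, 1476 kept their direction where called and their side of the threshold, 42 gained a call, 42 lost one and 0 turned round. In the LAG-3-high fraction against LAG-3-low 1 member was called, against 6 by DESeq2, 8 with the 2 groups alone, 0 after the length and GC correction, 0 without TMM factors and 7 without the 2 WT libraries richest in neutrophil markers (chosen after seeing the data). In LAG-3-/- against LAG-3+/+ microglia at P140 2 members were called, against 4 by DESeq2, 1 after the length and GC correction, 1 without the filter, 1 with RLE size factors, 1 with sex as a covariate and 0 with the 2 groups alone. Leaving out 1 library gave 0 to 3, with 0 without LAG-3-/- replicate 2 or 3 or LAG-3+/+ replicate 2 or 3. Between the ages in LAG-3+/+ microglia 4 were called, against 2 without the filter, 9 with the 2 groups alone and 1 to 5 when 1 library was left out. In LAG-3-/- microglia 0 were called between the ages, and 0 to 1 when 1 library was left out. In spinal cord 1 was called, and 6 with no fold minimum. At P140 the call of *Soat1* was the one lost after the length and GC correction, without the filter, with the block, with RLE size factors and with sex as a covariate. The cause of these changes was not tested. For these and the counts above, calls over all genes are given only for no TMM factors and no fold minimum. Counts of members under the other alternatives cannot be set against a background here.

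Same-numbered libraries correlated between -0.119 and 0.0674 in their deviations. Between the LAG-3-high and LAG-3-low fractions the mean was 0.032 for same-numbered and -0.0081 for other pairs. Such weak values cannot show whether the fractions share their mice. With a replicate block, 1 member rather than 2 was called at P140 between the genotypes.

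Scaling moved the level of all genes. Without TMM factors the median log2 fold change over all genes went from -0.02 to -0.40 between the fractions, from 0.14 to 0.47 between the genotypes at P140, from -0.22 to -0.70 between the ages in LAG-3+/+ microglia and from 0.00 to -0.13 in spinal cord. The genes called higher and lower went from 135 and 441 to 35 and 633 between the fractions, from 1347 and 561 to 2048 and 243 at P140, from 2219 and 2899 to 971 and 4120 between the ages and from 773 and 558 to 485 and 830 in spinal cord. The difference of *Lpl* between the genotypes at P140 was -0.11 with TMM factors and 0.21 without. The *Apoe* interaction of genotype and stage was -1.03, and 0.33 without P120 LAG-3-/- replicate 2.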
